A study of Rattus norvegicus with 8 samples.

Results

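The 10 genes described here mark Kupffer cells and other macrophages and were followed in the livers of adult male Sprague-Dawley rats: the receptors Cd163, Clec4f, Marco, Vsig4 and Csf1r, the lysosomal glycoprotein gene Cd68, the secreted protein gene Cd5l, and C1qa, C1qb and C1qc, which encode the chains of complement C1q. They were chosen by symbol as a list of cell type markers, each gene being represented by its brightest matched probe, and all 10 were measurable, out of 15154 genes with a matched probe and 10004 with a probe that passed the filter on dim signals. The control group held 4 arrays from male offspring of dams given corn oil only, and the AhR group held 4 arrays from male offspring of dams given corn oil with a mixture of compounds that activate the aryl hydrocarbon receptor (AhR). The mixture comprised non-ortho polychlorinated biphenyls, dibenzodioxins and dibenzofurans at a daily dose of 1.8 ng/kg in toxic equivalents of dioxin. Exposure ran from gestation day 0 to postnatal day 20, the pups of both groups stayed with their own mothers, and livers were taken at 78 to 86 days of age. Each array carried liver RNA pooled from 2 rats, labelled with Cy5, beside a universal rat reference RNA of 14 cell lines per the labels, labelled with Cy3. The labels do not say which pools shared a litter, so p-values measure the spread between pools. Values are log2 ratios of Cy5 over Cy3 for a probe, which compare arrays for 1 gene and do not rank genes by abundance.

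Kupffer cells are the resident macrophages of the liver sinusoids, where they take up particles, microbes, ageing red cells and haemoglobin from portal blood. Their survival depends on signalling through the receptor encoded by Csf1r, and they are a source of C1q, the recognition part of the classical complement pathway. The AhR, a receptor that enters the nucleus and binds DNA once a ligand is bound, is present in hepatocytes and in many immune cells. In whole-liver RNA, fewer macrophages and less of these transcripts per macrophage cannot be told apart.

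The ratios of these genes moved together between arrays, so the stretches upstream of their transcription starts are shown for the C1q genes, for Marco, whose ratio spread most, and for Clec4f, a lectin gene that marks Kupffer cells. In the RefSeq table, C1qb, C1qc and C1qa lie next to each other in that order, between Ephb2 and Epha8. The 250 bases before the start of each gene are given on the gene's strand, from RefSeq, build GRCr8, with GAGGAA or its reverse complement TTCCTC in capitals, the core letters bound by PU.1, a transcription factor that macrophages require. C1qc had no entry in the table.
C1qb, chr5:154407828-154408077, minus strand: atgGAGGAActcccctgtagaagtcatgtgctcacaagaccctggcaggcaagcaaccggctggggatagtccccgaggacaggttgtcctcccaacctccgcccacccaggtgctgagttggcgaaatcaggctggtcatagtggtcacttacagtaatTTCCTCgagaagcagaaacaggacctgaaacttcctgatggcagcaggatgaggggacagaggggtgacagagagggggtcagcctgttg
C1qa, chr5:154419934-154420183, minus strand: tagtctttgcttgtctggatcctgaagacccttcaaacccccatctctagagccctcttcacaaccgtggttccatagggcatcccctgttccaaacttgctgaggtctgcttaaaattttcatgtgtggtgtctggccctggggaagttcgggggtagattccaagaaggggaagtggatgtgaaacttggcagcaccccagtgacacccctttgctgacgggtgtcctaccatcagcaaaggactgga
Marco, chr13:34201256-34201505, minus strand: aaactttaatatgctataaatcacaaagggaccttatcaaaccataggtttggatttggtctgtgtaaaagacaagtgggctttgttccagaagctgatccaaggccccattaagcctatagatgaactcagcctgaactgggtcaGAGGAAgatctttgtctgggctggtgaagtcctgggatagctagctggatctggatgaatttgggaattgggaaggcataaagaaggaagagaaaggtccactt
Clec4f, chr4:117696408-117696657, minus strand: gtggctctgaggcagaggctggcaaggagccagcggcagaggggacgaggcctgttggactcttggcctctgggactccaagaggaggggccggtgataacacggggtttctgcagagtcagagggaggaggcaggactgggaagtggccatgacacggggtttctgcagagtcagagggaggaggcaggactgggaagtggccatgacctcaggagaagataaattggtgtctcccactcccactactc

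Of the 9 members with an upstream stretch, 5 held the PU.1 core letters on either strand, namely Marco, Csf1r, Cd68, Cd5l and C1qb, while 23.3% of 33465 such stretches in the table did. The half-site TGCTGAC of MAF factors (reverse complement GTCAGCA) was present in 1 of 9, C1qa, against 3.53% of all stretches. The AhR core GCGTG (reverse complement CACGC) was present in 1 of 9, Csf1r, against 25.9%. These are matches of letters and not sites of binding, and none of the 3 motifs contains another.

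Before the groups were compared, 2 arrays stood apart for these genes. Control replicate 1 had the lowest ratio of all 8 arrays for 10 of 10 members, where it was the lowest array for 18.2% of all 17859 probes tested. AhR replicate 3 had the highest ratio for 8 of 10 members, against 10.7% of all probes. Averaged over the members, control replicate 1 lay 0.80 below the gene means on the log2 scale, and AhR replicate 3 lay 0.50 above them, while the other 6 arrays lay between -0.17 and 0.27. Control replicate 1 was also at the low end of the arrays in overall signal: it had the lowest share of probes above background, 56.2% where the other arrays reached up to 62.0%, the lowest Cy5 background, 71 over 72 to 76, and the lowest median log2 ratio, -0.02. Its median Cy5 brightness, 159, was shared with control replicate 2 and rose to 232 on the other arrays. The part of overall signal in the results was not tested. Results are therefore given with and without these 2 arrays where they bear on them.

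**Figure D1:**
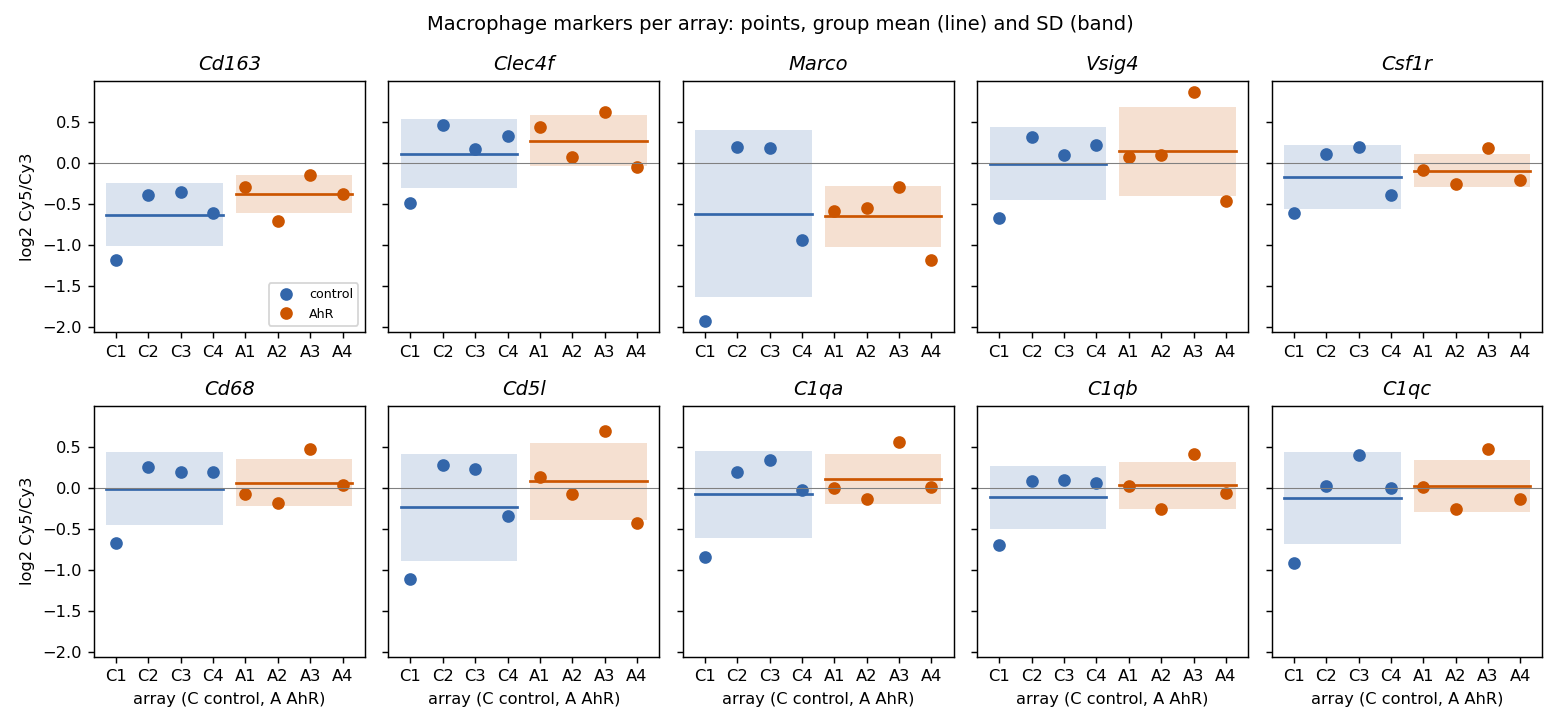
Log2 Cy5/Cy3 ratio (vertical axis) of the 10 markers on each array (horizontal axis), with 4 control arrays in blue and 4 AhR arrays in orange. Points are arrays, lines are group means and bands are 1 SD on either side; control replicate 1 is the lowest point in all 10 panels, and the groups overlap in each.

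Among the scavenger receptors, Cd163 takes up complexes of haptoglobin and haemoglobin. Its log2 ratio was -1.18, -0.38, -0.35 and -0.60 on control replicates 1 to 4, and -0.30, -0.70, -0.14 and -0.37 on AhR replicates 1 to 4. Apart from the low control replicate 1, the controls lay within the range of the AhR arrays. The control mean was -0.63 ± 0.39 and the AhR mean -0.38 ± 0.23 (SD, n = 4 each), which differ by 0.25 (SE 0.19, limma adjusted p = 1.00, exact permutation p = 0.371). Leaving out control replicate 1 reduced this difference to 0.07.

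Marco, which encodes a collagenous scavenger receptor for bacteria and particles, had the widest spread of the members. It stood at -1.92, 0.19, 0.19 and -0.94 on control replicates 1 to 4, and at -0.59, -0.54, -0.29 and -1.17 on AhR replicates 1 to 4. The controls thus held both the lowest and the highest arrays, with the AhR arrays between them. Control replicate 2 exceeded control replicate 1 by 4.33-fold. The group means were -0.62 ± 1.02 and -0.65 ± 0.37 (SD, n = 4 each), and they differed by -0.03 (SE 0.41, limma adjusted p = 1.00, exact permutation p = 0.943). The sign of this difference was not stable, being -0.46 when control replicate 1 was left out and 0.24 when control replicate 2 was.

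Cd68, a lysosomal protein of macrophages in many tissues, had ratios of -0.67, 0.25, 0.19 and 0.19 in control and -0.07, -0.19, 0.47 and 0.04 in AhR, in order of replicate. Here 3 controls lay close together, and control replicate 1 lay far below them. The group means were -0.01 ± 0.44 and 0.06 ± 0.29 (SD, n = 4 each), differing by 0.07 (SE 0.21, limma adjusted p = 1.00, exact permutation p = 0.829). The sign of the Cd68 difference turned without control replicate 1 (-0.15) and without AhR replicate 3 (-0.07).

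Cd5l encodes a secreted scavenger-type protein made by tissue macrophages that travels in plasma with immunoglobulin M. Its ratios were -1.11, 0.28, 0.23 and -0.35 on control replicates 1 to 4, and 0.14, -0.07, 0.69 and -0.43 on AhR replicates 1 to 4. After control replicate 1, the lowest arrays were AhR replicate 4 and control replicate 4, as for Marco. Cd5l had the largest difference between groups of the 10, at 0.32 (SE 0.31, 95% interval -0.37 to 1.00), with means of -0.24 ± 0.65 for control and 0.08 ± 0.47 for AhR (SD, n = 4 each, limma adjusted p = 1.00, exact permutation p = 0.486). It shrank to 0.03 without control replicate 1. A second probe of the gene followed the first over the 8 arrays (r = 0.98) and gave 0.20.

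Of the surface receptors, Clec4f, a C-type lectin of Kupffer cells that binds galactose-bearing ligands, stood at -0.49, 0.46, 0.17 and 0.33 in control and 0.44, 0.07, 0.62 and -0.04 in AhR. The groups overlapped over most of their range. Clec4f averaged 0.12 ± 0.42 across controls and 0.27 ± 0.31 across AhR arrays (SD, n = 4 each). The difference was 0.16 (SE 0.21, limma adjusted p = 1.00, exact permutation p = 0.600), and -0.05 without control replicate 1. Vsig4, the complement receptor of the immunoglobulin family that captures C3-coated particles, stood at -0.66, 0.31, 0.10 and 0.21 in control and 0.07, 0.10, 0.86 and -0.46 in AhR. Its highest and second-lowest values were both AhR arrays. Vsig4 averaged -0.01 ± 0.44 across controls and 0.14 ± 0.54 across AhR arrays (SD, n = 4 each). The Vsig4 difference was 0.15 (SE 0.27, limma adjusted p = 1.00, exact permutation p = 0.771), and it was -0.06 when control replicate 1 was left out and -0.08 when AhR replicate 3 was.

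Csf1r, the receptor for the macrophage growth factors CSF1 and IL-34, had ratios of -0.61, 0.11, 0.20 and -0.39 in control and -0.08, -0.26, 0.18 and -0.21 in AhR. Control replicate 4 was low for Csf1r and Marco but not for Clec4f or Vsig4. The means were -0.17 ± 0.39 and -0.09 ± 0.20 (SD, n = 4 each), a difference of 0.08 (SE 0.18, limma adjusted p = 1.00, exact permutation p = 0.743) that was -0.07 without control replicate 1. A second Csf1r probe, which had a single spot with Cy5 brightness of 132 to 193 over a background of 71 to 76, followed the first less closely (r = 0.44) and gave a difference of -0.04. Of the ligands, Csf1 differed by 0.17 (SE 0.15) and Il34 by 0.13 (SE 0.13), and neither passed the test.

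The C1q chains assemble with each other into the hexameric stalked molecule that binds antibody on surfaces. C1qa had ratios of -0.84, 0.19, 0.34 and -0.02 on control replicates 1 to 4 and of -0.01, -0.13, 0.56 and 0.01 on AhR replicates 1 to 4. For C1qb they were -0.69, 0.08, 0.10 and 0.05 in control and 0.03, -0.26, 0.41 and -0.07 in AhR. C1qc had -0.92, 0.03, 0.39 and -0.01 in control and 0.01, -0.26, 0.47 and -0.13 in AhR. In all 3 genes the lowest array was control replicate 1, the next lowest AhR replicate 2 and the highest AhR replicate 3. Each gene's groups overlapped, with control and AhR means of -0.08 ± 0.53 and 0.11 ± 0.31 for C1qa, -0.12 ± 0.38 and 0.03 ± 0.28 for C1qb, and -0.13 ± 0.56 and 0.02 ± 0.32 for C1qc (SD, n = 4). The differences were 0.19 (SE 0.24) for C1qa, 0.14 (SE 0.19) for C1qb and 0.15 (SE 0.25) for C1qc, with limma adjusted p = 1.00 and exact permutation p of 0.600, 0.657 and 0.743. Without control replicate 1 they were -0.06, -0.05 and -0.12. A list of 8 genes, all measured, held the proteases and inhibitor that act with C1q, the next steps of the classical pathway and C4b-binding protein. The AhR mean was the higher one for 3 and the lower one for 5, and their differences had a median of -0.02. The 3 of these with the smallest p were C3 at 0.09, C4bpb at -0.06 and C4a at 0.05.

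Across the 10 members, 0 passed limma's test between the groups at an adjusted p of 0.05, and the background was 0% of the 17859 probes. At an unadjusted p under 0.05 the counts were 0 of 10 members and 1.61% of all probes. The groups overlapped for all 10, while they did not overlap for 1.19% of probes. The mean was higher in AhR for 9 of 10 members, against 47.7% of probes, with a median difference of 0.15 against -0.01 over all probes. Markers of other cell types also had mostly higher means in AhR in some lists: 7 of 8 endothelial markers (median 0.10) and 8 of 11 stellate and matrix markers (median 0.10), while 0 of 5 red cell markers did (median -0.35). The count of 9 macrophage members rested on 2 arrays: it was 2 of 10 without control replicate 1 (median -0.06), 5 of 10 without AhR replicate 3 (median 0.01) and 0 of 10 without both (median -0.20). The 95% intervals of the single genes ran from -0.32 to 0.48 for Csf1r, among the narrowest, to -0.95 to 0.89 for Marco, the widest. The first row of the slide held control replicates 1 and 3 and AhR replicates 2 and 4. Within it the median difference was 0.15, and within the second row, which held AhR replicate 3, it was 0.19. Each row thus held 1 of the 2 arrays on which the count rested, so the rows do not repeat the difference without them.

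**Figure D2:**
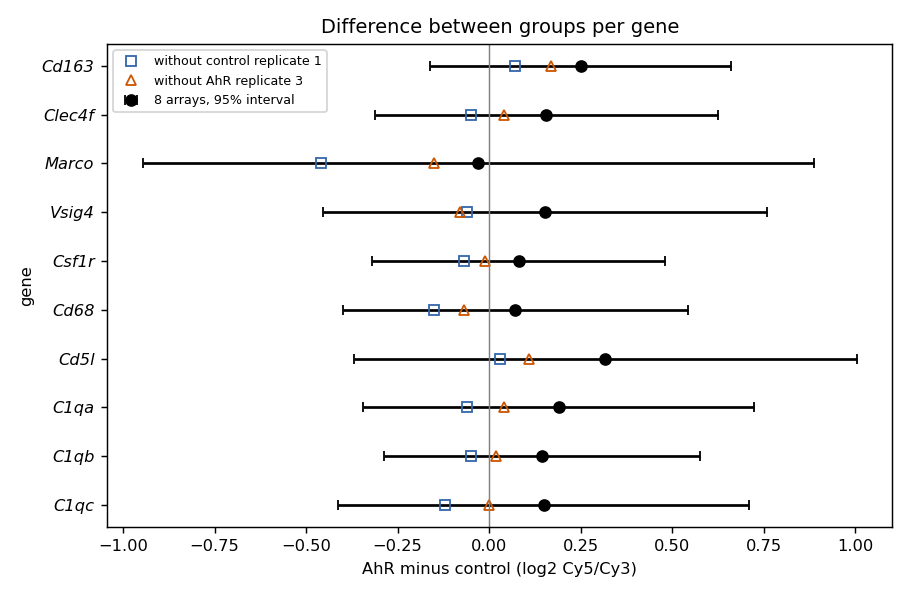
Difference between AhR and control in log2 Cy5/Cy3 ratio (horizontal axis) for each marker (vertical axis), with black points and 95% limma intervals from 8 arrays. Open squares leave out control replicate 1 and open triangles AhR replicate 3; all 10 intervals include 0, and the squares lie to the left of the black points.

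The spread of the members between arrays exceeded the error of the spots. The SD within groups ran from 0.31 for Csf1r to 0.77 for Marco, which placed the members between percentile 89.9 and percentile 99.6 of all probes, whose median was 0.17. The SE of a ratio from repeat spots of the probe on an array was 0.02 to 0.06, so that the SD within groups was 5.77 to 21.1 times as large. The spread was larger in the liver channel. After scaling each channel to its 75th percentile, the SD over 8 arrays was 0.31 to 0.89 in Cy5 and 0.04 to 0.16 in Cy3. Both channels were taken from signals that the scanner software had already dye-normalized. Between the lowest and the highest array the ratio changed 1.75-fold for Csf1r, 2.64-fold for C1qa, 3.48-fold for Cd5l and 4.33-fold for Marco. Without control replicate 1 these ranges were 1.5-fold, 1.61-fold, 2.17-fold and 2.58-fold. Control replicate 1 lay below the mean of the other controls by between 1.5-fold for Csf1r and 3.32-fold for Marco.

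**Figure D3:**
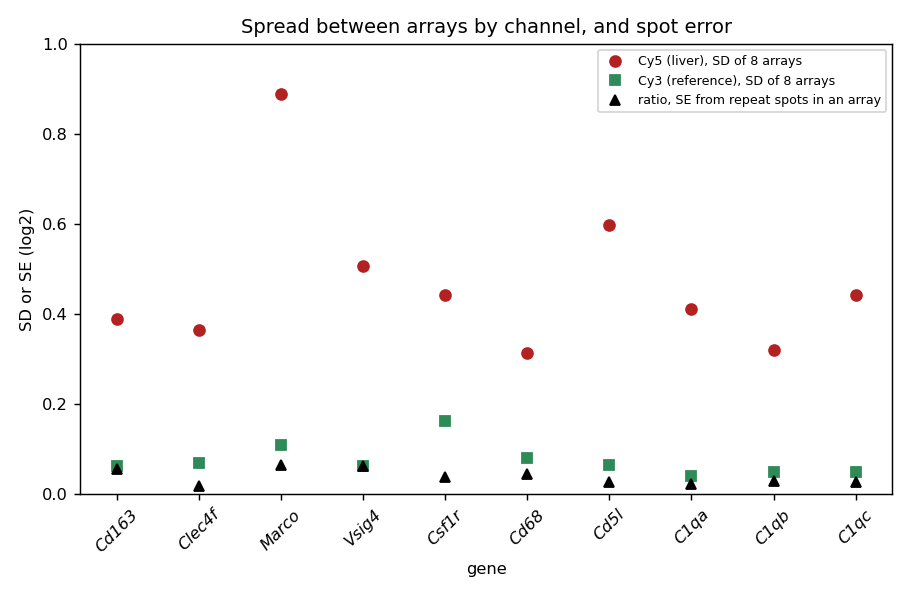
SD over the 8 arrays (vertical axis, log2) for each marker (horizontal axis), with Cy5 in red circles and Cy3 in green squares, and the SE of the ratio from repeat spots in black triangles. The red points, 0.31 to 0.89, lie above the green points, 0.04 to 0.16, for every marker. The signals of both channels were dye-normalized by the scanner software.

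The members rose and fell together over the pools. All 45 pairs had a positive Pearson correlation over the 8 arrays, from 0.68 for Cd163 with Vsig4 to 0.98 for C1qa with C1qc, with a mean of 0.86. The median correlation of a member with all probes was between 0.02 and 0.05. Of the 45 pairs, 43 passed an adjusted p of 0.05 by the exact permutation test over all 40320 orders of the arrays, and 26 did by Spearman's rho. The share of pairs among all probes that would pass was not computed. C1qa and C1qc gave r = 0.98 and rho = 0.93 (exact permutation p = 0.000174 and 0.00223, adjusted p = 0.00298 and 0.0205). Cd68, at a different chromosomal position, gave r = 0.97 and rho = 0.95 with C1qb (exact permutation p = 0.000471 and 0.00114, adjusted p = 0.00484 and 0.0205). Ratios of an array share its Cy3 channel and its normalization. In Cy5 alone the mean correlation was 0.88. These Cy5 signals were already dye-normalized by the scanner software, so they still carry the array's normalization. For deviations from the group means the mean correlation was 0.87.

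The size of these correlations depended on control replicate 1. Without it the mean correlation of the pairs was 0.68, still with all 45 above 0, and 3 pairs passed the adjusted threshold: these were the pairs among C1qa, C1qb and C1qc, at r of 0.94 for C1qa with C1qc, 0.90 for C1qa with C1qb and 0.89 for C1qb with C1qc (exact permutation, adjusted p = 0.0357, 0.0357 and 0.0476). Without AhR replicate 3, 26 pairs passed. Without both arrays the mean was 0.52, 44 pairs were above 0 and 0 passed, with Cd163 and Vsig4 at -0.24. With the 2 arrays farthest from the median of the first gene of each pair left out, the mean was 0.55, with 45 of 45 still above 0 and C1qa with C1qc at 0.91. No pair passed there either, but 6 arrays allow no exact permutation p below 0.00139, and 1 pair alone would need 0.00111, so the loss of calls with 6 arrays says little.

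**Figure D4:**
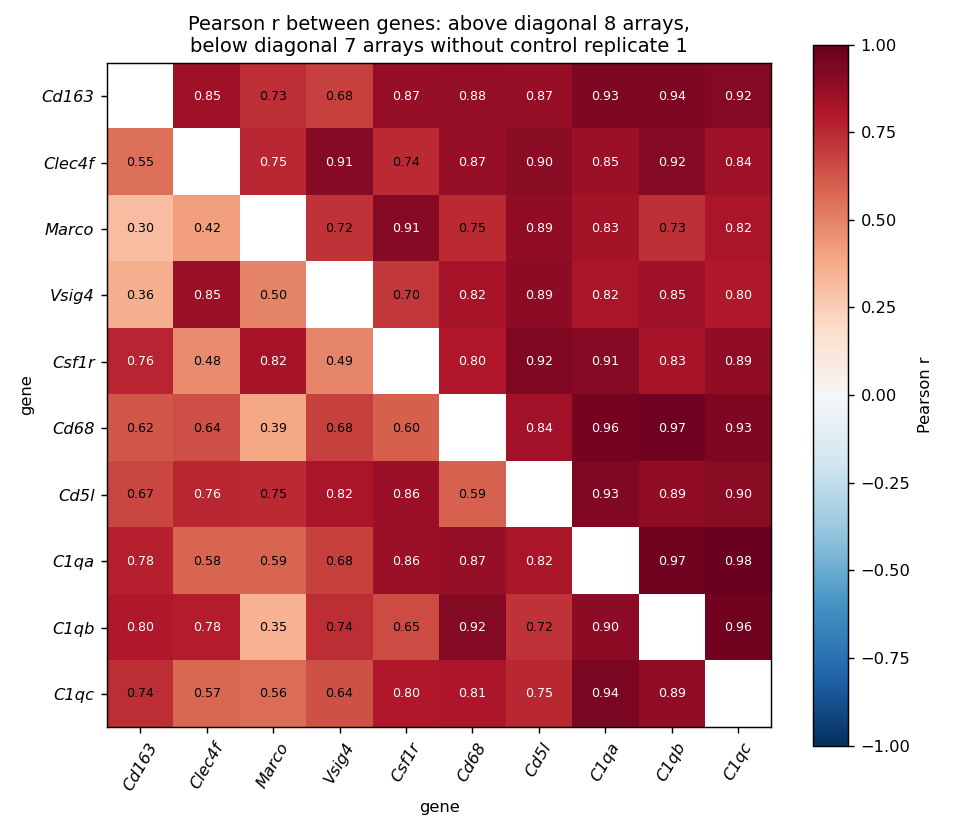
Pearson correlation between the markers named on both axes, over 8 arrays above the diagonal and over the 7 arrays without control replicate 1 below it. All values are positive; above the diagonal they run from 0.68 to 0.98, and below it from 0.30, for Cd163 with Marco, to 0.94, for C1qa with C1qc.

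The members did not all follow the mean of the others equally closely. C1qa had the highest correlation with the mean of the other 9, at 0.98, and Marco the lowest, at 0.84; without control replicate 1 these were 0.94 and 0.60. Without control replicate 1, Marco and Csf1r kept r = 0.82 and Clec4f and Vsig4 r = 0.85, while Marco with Clec4f had 0.42 and Csf1r with Vsig4 had 0.49. As deviations from the gene means, control replicate 4 lay at -0.30 for Marco, -0.25 for Csf1r and -0.27 for Cd5l. It lay at 0.13 for Clec4f and 0.15 for Vsig4. AhR replicate 4 lay at -0.52 for Vsig4, -0.54 for Marco and -0.35 for Cd5l on the same scale, and at 0.01 for Cd68 and -0.004 for C1qa.

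Other genes followed the same pattern over the arrays. A correlation of 0.8 or more with the mean of the standardized members was reached by 10 of 10 members against the mean of the other 9, and by 1.96% of the 17849 other probes. With control replicate 1 left out it was reached by 6 of 10 members, all but Cd163 (0.73), Clec4f (0.73), Marco (0.60) and Vsig4 (0.75), and by 0.88% of the other probes. The gene most like them was Ptprc, which encodes the leukocyte antigen CD45, at r = 0.98, followed by Coro1a, an actin regulator of leukocytes, at 0.97. The first 10 also held Limd2, Upp1, Lcp2, Prf1, Capg, R3hdm2 and Siglec1, at 0.94 to 0.96. Without control replicate 1 the correlations of the genes named here lay between 0.82 and 0.95.

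Of 26 further genes of macrophage surfaces and lysosomes, 23 were measured, and 11 of them had a correlation of 0.8 or more with the members, or 4 without control replicate 1. Siglec1, a sialic acid receptor of macrophages, had 0.94, the lysosomal protease gene Ctss 0.94 and Adgre1, which encodes an adhesion receptor that marks macrophages, 0.89. Cd14, a lipopolysaccharide co-receptor, had -0.42, and the lysozyme gene Lyz2 had -0.23, so these genes did not follow the members. Between groups this list had 15 genes with higher and 8 with lower means in AhR and a median difference of 0.02, and 0 passed the test at an adjusted p of 0.05. The smallest p was that of Trem2, a lipid-sensing receptor of macrophages, at -0.30, -0.17, -0.12 and -0.15 in control and 0.17, 0.12, -0.01 and 0.10 in AhR. The groups did not overlap for 1.19% of all probes, Trem2 among them. Its difference was 0.28 (SE 0.09, limma adjusted p = 1.00, exact permutation p = 0.0286, the smallest that 4 against 4 arrays can give), at a Cy5 brightness of 88.5 to 145.5 that was well above background on 7 of the 8 arrays. Its correlation with the members was 0.33, and -0.40 without control replicate 1. Mpeg1, a pore-forming protein gene, differed by -0.25 (SE 0.18) and Adgre1 by 0.28 (SE 0.22).

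Of 13 transcription factors and regulators of macrophages, 11 were measured, 4 with higher and 7 with lower means in AhR. Spi1, which encodes PU.1, had a correlation of 0.88 with the members and Irf5 0.89, and these were the 2 of the list at 0.8 or more. With control replicate 1 left out they had 0.65 and 0.69, and 0 of 11 reached 0.8. Nr1h3, which encodes the oxysterol receptor LXR alpha, had 0.52. Irf5 differed by 0.18 (SE 0.13), Spi1 by 0.20 (SE 0.18) and Cebpb by -0.12 (SE 0.12) between groups. Genes of antigen presentation on MHC class II, which macrophages, dendritic cells and B cells express, had 7 of 8 members measured and a median correlation of 0.87. Without control replicate 1 this was 0.60, beside 0.60 for the further macrophage genes and 0.64 for the lymphocyte and NK cell markers. Its invariant chain gene Cd74 stood at -0.71 on control replicate 1 and at 0.87 on AhR replicate 3, the same lowest and highest arrays as most of the members, and the list had 5 genes higher and 2 lower in AhR. The class II chain gene RT1-Db1 differed by 0.23 (SE 0.21), Cd74 by 0.19 (SE 0.28) and Ciita, the class II transactivator gene, by -0.07 (SE 0.10). Genes of haem and iron recycling, a task of Kupffer cells and hepatocytes, had a median correlation of 0.14 over 11 measured genes. Slc11a1, a phagosomal metal transporter, had 0.94, and Slc40a1, the iron exporter ferroportin, -0.20. Without control replicate 1 the median of this list was -0.11, with Slc11a1 at 0.81 and Slc40a1 at -0.11. Slc40a1 differed by 0.17 (SE 0.12), the ferritin light chain gene Ftl1 by 0.17 (SE 0.10) and the biliverdin reductase gene Blvrb by 0.14 (SE 0.09). The ligands of Csf1r with other niche signals had 5 measured genes, all with higher means in AhR, where 47.7% of all probes had. Their median difference was 0.13, with Dll4 at 0.01 (SE 0.09) and Csf3 at 0.06 (SE 0.08), and 0 passed the adjusted threshold. Their median correlation was 0.25, with Tgfb1 at 0.72. Without control replicate 1 this median correlation was 0.32, and Tgfb1 had 0.32.

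Markers of other cell types were measured to show which of them moved with the macrophage genes. Lymphocyte and NK cell markers, 9 of 15 measured, had a median correlation of 0.73 with the members. The cytotoxic gene Prf1 among them had 0.95, while Cd2 and Klrb1 were not well above background on any array. Monocyte and neutrophil markers, 6 of 13 measured, had 0.53, and Ccr2, Elane, Ngp and Csf3r, among others, were not well above background on any array. Endothelial markers, 8 of 13 measured, had 0.22, stellate and matrix markers, 11 of 12 measured, 0.18, hepatocyte markers, 15 of 15 measured, -0.08 and cholangiocyte markers, 5 of 6 measured, -0.37. The median over all probes was 0.04. Without control replicate 1 the median was 0.64 for lymphocyte and NK cell markers and 0.55 for monocyte and neutrophil markers. It was then 0.24 for endothelial, -0.09 for stellate and matrix, -0.17 for hepatocyte and -0.22 for cholangiocyte markers, and 0.01 over all probes.

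Between groups, 0 genes of these other lists passed limma's adjusted threshold, and the genes of smallest p in each list are given as differences of AhR from control. Dcn, which encodes the matrix proteoglycan decorin, had the smallest p among them, at 0.33 (SE 0.11, limma unadjusted p = 0.0125, adjusted p = 1.00), and its groups did not overlap. The collagen genes Col1a2 and Col3a1 differed by 0.24 (SE 0.19) and 0.18 (SE 0.14). Of the endothelial markers, the receptor gene Tie1 differed by 0.21 (SE 0.10) with groups that did not overlap, Oit3 by 0.36 (SE 0.17) and the hyaluronan receptor gene Lyve1 by 0.31 (SE 0.16). Groups without overlap, as for Dcn and Tie1, occurred in 1.19% of all probes. Of the red cell markers, the haemoglobin chaperone gene Ahsp differed by -0.70 (SE 0.43), Hbb by -0.56 (SE 0.38) and the anion exchanger gene Slc4a1 by -0.32 (SE 0.24). The lymphocyte genes Cd8a, Gzmb and Cd3g differed by -0.09, -0.08 and -0.09, and the monocyte and neutrophil genes S100a9, Camp and Plac8 by -0.20, -0.11 and -0.12. The hepatocyte genes Hnf4a, Cyp2c11 and Alb differed by 0.17, 0.26 and -0.20, and the bile duct markers Krt19, Krt7 and Spp1 by 0.19, 0.09 and 0.11. Of 9 measured inflammation genes 3 had higher means in AhR, and Cxcl10, Il1b and Nfkbia differed by -0.32, 0.24 and -0.13.

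On control replicate 1 the MHC class II genes lay 0.65 below their gene means, the further macrophage genes 0.39, the monocyte and neutrophil markers 0.38 and the lymphocyte markers 0.22. The hepatocyte, endothelial and stellate markers lay 0.09, 0.05 and 0.07 below on the same array. The summed Cy5 level of the lymphocyte markers, in log2 units over the 75th percentile, was 0.18 to 0.78 in control and 0.24 to 0.73 in AhR, and that of the monocyte and neutrophil markers was 0.77 to 2.23 and 1.21 to 1.80. Red cell markers, 5 of 7 measured, had a summed level of 8.25 to 8.96 in control and 7.70 to 8.25 in AhR. They were highest on control replicate 2, at 1.15 above their gene means, and lowest on AhR replicate 3, at -0.79. Their median correlation with the members was 0.07, and -0.24 without control replicate 1. The part of other blood cells in the macrophage pattern was not tested.

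**Figure D5:**
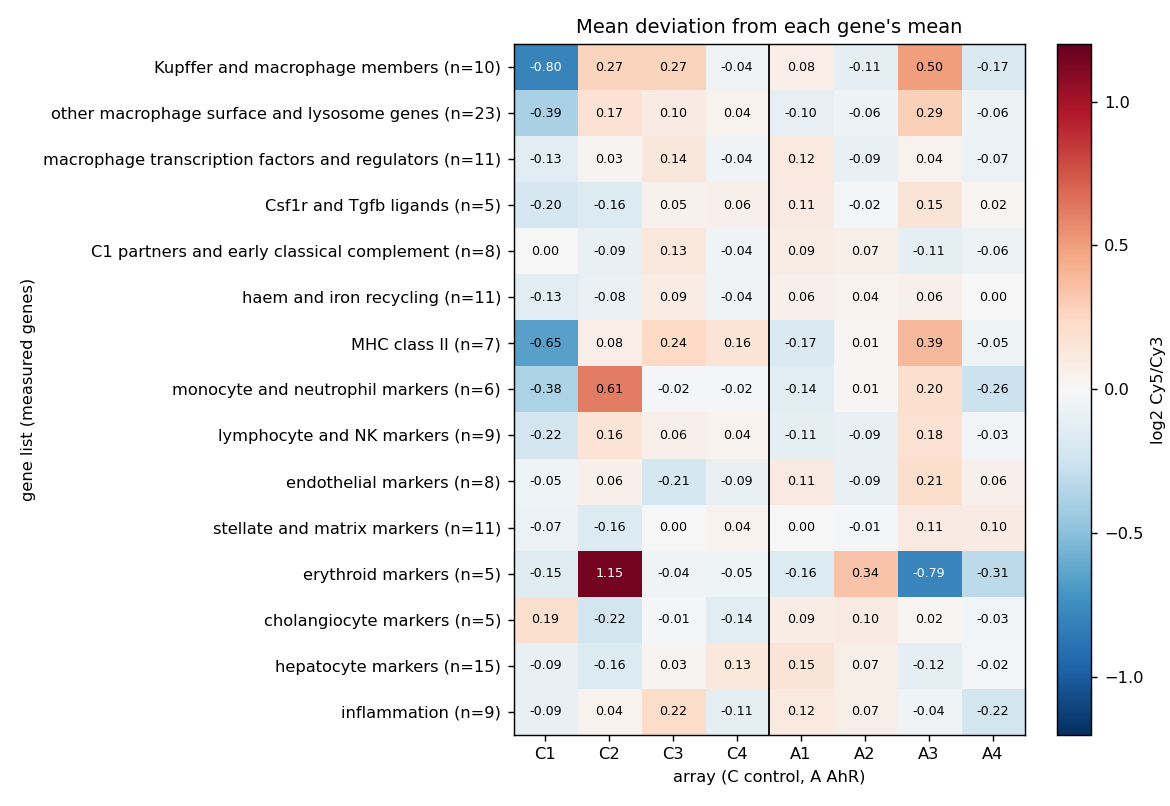
Mean deviation of log2 Cy5/Cy3 ratio from each gene's mean (colour and printed value) for the gene lists (vertical axis, with the number of measured genes) on each array (horizontal axis; C control, A AhR). The macrophage members and MHC class II genes are lowest on control replicate 1, at -0.80 and -0.65, and highest on AhR replicate 3, at 0.50 and 0.39; the red cell markers have their highest value, 1.15, on control replicate 2.

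Against the reference, the mean ratios of the members ran from -0.63 for Marco to 0.19 for Clec4f. The normalization centres the ratios of each array near 0, so a mean near 0 does not show equal RNA levels. Clec4f had a mean ratio over the 8 arrays of 0.19 (95% interval -0.03 to 0.42), C1qa of 0.01 (-0.25 to 0.27) and Vsig4 of 0.07 (-0.22 to 0.36). All 10 members were well above background in Cy3 as well as Cy5 on all 8 arrays, although the reference is labelled as RNA of cell lines. Limma's test of the mean ratio against 0 called 2 of 10 members, and 24.2% of all probes, so the members were not set apart by this count. Both were brighter in Cy3: Cd163 by 1.42-fold (mean -0.50, SE 0.10, limma adjusted p = 0.00325, below 0 on 8 of 8 arrays) and Marco by 1.55-fold (mean -0.63, SE 0.20, limma adjusted p = 0.0373, below 0 on 6 of 8 arrays). The Marco call ended in 6 of 8 settings that left out 1 array, all but control replicates 2 and 3 (limma adjusted p of 0.0196 to 0.0866), and with Agilent's processed signals (0.0568) or no filter on dim probes (0.0617). With median centring both calls ended (limma adjusted p = 0.0650 and 0.137) and Clec4f was called in their place. Clec4f was also called, beside Cd163, when control replicate 1 was left out. As no dyes were swapped, a dye effect and a difference in RNA level cannot be told apart here.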

How the data were processed

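Liver RNA of 8 pools was measured on 8 arrays of 1 slide. The intensity values, median pixel brightness of each spot and its local background, and signals already background-subtracted and dye-normalized by the scanner software were deposited by the authors; per the file headers they are output of Feature Extraction, version 10.7.3.1, by Agilent. A second table deposited by the authors holds log2 values, with its normalization unstated. Set against the ratios used here, each column ran in the direction Cy5 over Cy3 (slopes 1.02 to 1.04, correlations over probes 0.990 to 0.994), with column medians of 0.00569, 0.0106, 0.0102 and 0.0114 for control and 0.0135, 0.0165, 0.00884 and 0.0108 for AhR replicates 1 to 4.

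In limma 3.58.1 (R 4.3.3), normexp (offset 50) corrected the background and loess normalized the ratios, giving weight 0 to control spots and to spots the scanner marked as outliers. Repeat spots were averaged. The filter kept the 17859 of 30367 probes with Cy5 well above background on 4 or more arrays. RefSeq accessions, without versions, were matched to the GRCr8 gene table, which named 18004 probes; array coordinates (build rn4) are not used. Groups were compared with limma (lmFit, eBayes, Benjamini-Hochberg over all kept probes), and single genes by two-sided exact permutation over arrays, whose smallest p is 0.0286. The 45 correlations of members had Benjamini-Hochberg adjustment over the pairs. The procedure was tested on simulated data. The members and gene lists were chosen with earlier results of these data known; genes were named by rule: all members, the 3 of smallest p in each other list, and the 10 most correlated genes; other named list genes were chosen after their values were seen. One gene that the rule names is not reported here.

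Same-numbered control and AhR arrays deviated together in none of 4 cases (r of -0.37 to 0.05). Differently numbered arrays had r of -0.32 to 0.28. Pairing by number was thus not seen and the main comparison used none, but 4 values cannot exclude it. All arrays were counted as separate samples, as labelled; no 2 held identical values. The number of arrays limits the precision. Alternatives covered background, normalization, Cy5 alone, filters, blocks, the value table and arrays left out.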

Additional observations from a re-analysis of the deposited data

Results flagged for a closer look

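In the control group, Cd68 on replicate 1 (-0.67) and C1qb on replicate 1 (-0.69) lay farther from the other 3 arrays than Dixon's 95% limit of 0.829 for the share of the range. Of 20 groups of 4 values, 2 passed this limit, which chance passes in about 1 group of 20. Both are the same array, and the members are correlated, so the 2 are not independent.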

How the results depend on the processing

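The comparison of the groups called 0 probes and 0 members under all alternatives run, with 288 probes at an unadjusted p under 0.05, 172 with median centring, 715 with no filter on dim probes and 194 to 818 with 1 array left out. The median member difference of 0.15 was 0.12 with Cy5 alone and 0.22 with median centring. With the replicate block or slide row as a block it was also 0.15. The design fixes this in advance, as each block holds equal numbers of both groups. With 1 array left out it ran from -0.06 to 0.25. It was -0.20 without control replicate 1 and AhR replicate 3 together, a setting chosen after seeing the data. The count of members with a higher mean in AhR was 9, or 10 with Agilent processed signals, median centring and Cy5 alone; it ran from 2 to 10 with 1 array left out and was 0 without both. The single differences with 1 array left out ran from -0.06 to 0.33 for C1qa, -0.05 to 0.24 for C1qb, -0.12 to 0.32 for C1qc, 0.07 to 0.36 for Cd163, 0.03 to 0.49 for Cd5l, -0.15 to 0.16 for Cd68, -0.05 to 0.27 for Clec4f, -0.07 to 0.20 for Csf1r, -0.46 to 0.24 for Marco and -0.08 to 0.35 for Vsig4. Without both arrays they were -0.21 for C1qa, -0.18 for C1qb, -0.27 for C1qc, -0.01 for Cd163, -0.18 for Cd5l, -0.29 for Cd68, -0.16 for Clec4f, -0.16 for Csf1r, -0.58 for Marco and -0.30 for Vsig4. The sign also turned within slide row 2 for Cd68 (-0.02), within slide row 1 for Csf1r (-0.03), with the other probe for Csf1r (-0.04), and for Marco with Agilent processed signals (0.02), median centring (0.07), Cy5 alone (0.04) and within slide row 1 (0.01). Of the 45 pairs, 43 were called, 38 for deviations from group means, 3 to 42 with 1 array left out and 0 without both; the mean correlation of 0.86 ran from 0.68 to 0.89 and was 0.52 without both. Settings that leave out arrays test fewer arrays. The count of 2 members called against the reference was 1 with Agilent processed signals, median centring and no filter on dim probes. It was 1 to 2 with 1 array left out and 1 without both. Without control replicate 1 the 2 called were Cd163 and Clec4f, not Cd163 and Marco. The cause of these changes was not tested. Control replicate 1 was lowest for 10 of 10 members under all 7 other ways of processing, and AhR replicate 3 was highest for 7 to 9. Among these, the changes of filter leave the members' ratios as they are, so their counts had to equal the main ones.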

Other observations

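The genes that ran most opposite to the macrophage markers over the 8 arrays included Igfbp1, a hepatocyte-secreted binding protein of insulin-like growth factors, at r = -0.94 (-0.87 without control replicate 1), Mccc2, a leucine-degrading carboxylase subunit gene, at -0.96 (-0.93), and Homer1 at -0.96 (-0.86). These genes were chosen after their values were seen, from 10004 genes, as descriptions without a test. Igfbp1 had an SD within groups of 0.97 and differed by -0.27 between groups (limma unadjusted p = 0.609). C5ar1, the receptor of complement fragment C5a on myeloid cells, had r = 0.35 with the markers over 8 arrays and 0.96 without control replicate 1.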
